A study of Mus musculus with 2 samples.

Results

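The 4 Hox gene clusters of the mouse were examined for H3K56ac, an acetylated lysine in the globular core of histone H3, in E14Tg2a embryonic stem cells. Members were all H3K56ac intervals that overlapped, by 1 bp or more, a fixed mm9 window around each cluster: Hoxa on chromosome 6 (52100000 to 52215000), Hoxb on chromosome 11 (96050000 to 96232000), Hoxc on chromosome 15 (102745000 to 102870000) and Hoxd on chromosome 2 (74500000 to 74606000). The windows held 60 of the 92549 intervals of the deposited list: 15 at Hoxa, 24 at Hoxb, 16 at Hoxc and 5 at Hoxd. No member crossed a window edge.

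The study made 1 ChIP-seq library with an antibody to H3K56ac and 1 library of input DNA from E14Tg2a cells, with no treatment or altered gene named in the labels. E14Tg2a is a feeder-independent male line that derives from the inner cell mass of a mouse blastocyst. The cells were kept in medium with serum and leukaemia inhibitory factor, which holds them in the undifferentiated state. All values come from the interval list of the H3K56ac library, and the input DNA was not used here. The list names intervals by chromosome, start and end alone, so that read depth, peak height and markers of the cell type could not be read from it. With 1 library there is no replicate: the 95% intervals given for densities are exact Poisson intervals, those for ratios and shares are exact binomial intervals, and all cover counting error only and treat neighbouring intervals as independent.

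Hox genes encode homeodomain transcription factors that give cells their position along the body axis and along the limbs. Within a cluster the genes lie in the order in which they are switched on in the embryo, from the early, anterior genes at the 3′ end to the late, posterior genes at the 5′ end. In undifferentiated embryonic stem cells the clusters are known as Polycomb-covered, largely silent chromatin in which marks of activity and of repression lie together. H3K56ac sits where DNA enters and leaves the nucleosome, and in mammalian cells it is associated with the histone acetyltransferases p300 and CBP.

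The gene table of RefSeq lists all 39 Hox genes, 11 in Hoxa, 10 in Hoxb, 9 in Hoxc and 9 in Hoxd. That table is on assembly GRCm38.p6, so it was used for names and order, and no interval was assigned to a gene. From low to high coordinates it runs from Hoxb13 to Hoxb1, from Hoxc13 to Hoxc4 and from Hoxd13 to Hoxd1. The low-coordinate edge of these 3 windows is therefore the side of the posterior genes Hoxb13, Hoxc13 and Hoxd13, taking the clusters to have the same orientation in both assemblies. For Hoxa, positions are given by coordinate alone.

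The clusters also carry microRNA genes, and RefSeq places 6 of them between the outermost Hox genes of their cluster: Mir196b in Hoxa, Mir196a-1 and Mir10a in Hoxb, Mir196a-2 and Mir615 in Hoxc, and Mir10b in Hoxd. The mature 5′ arms of the miR-196 and miR-10 families are shown because they tie the clusters together: the same seed occurs in different clusters. Sequences are those of RefSeq (GRCm38.p6), from 5′ to 3′, with the seed (bases 2 to 8) in capitals. Mir196b lies on the minus strand of chromosome 6, and the others lie on the plus strand of their chromosome.
mmu-miR-196b-5p (Hoxa): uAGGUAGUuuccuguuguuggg
mmu-miR-196a-5p (Hoxb and Hoxc): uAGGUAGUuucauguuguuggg
mmu-miR-10a-5p (Hoxb): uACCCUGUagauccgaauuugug
mmu-miR-10b-5p (Hoxd): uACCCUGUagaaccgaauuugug
The miR-196 seed is thus present in Hoxa, Hoxb and Hoxc, and the miR-10 seed in Hoxb and Hoxd. Whether an interval lay at a microRNA gene was not analysed here.

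H3K56ac intervals were present in all 4 Hox windows, at nearly the same density in Hoxa, Hoxb and Hoxc and at a lower density in Hoxd. Hoxa had 13.0 intervals per 100 kb (95% interval 7.3 to 21.5), Hoxb 13.2 (8.45 to 19.6) and Hoxc 12.8 (7.32 to 20.8). Hoxd had 4.72 intervals per 100 kb (1.53 to 11.0). The 19 autosomes averaged 3.75 intervals per 100 kb between their first and last intervals, and the 4 windows together held 11.4, or 3.03 times as many. The mean for the autosomes includes stretches to which reads cannot be assigned.

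Between clusters, the densities of Hoxa, Hoxb and Hoxc could not be told apart by counting error. The ratio of Hoxa to Hoxb was 0.989 (95% interval 0.482 to 1.96), that of Hoxa to Hoxc 1.02 (0.469 to 2.20) and that of Hoxb to Hoxc 1.03 (0.525 to 2.08). These intervals allow differences of about 2-fold in either direction. Against Hoxd, Hoxb was 2.80 times as dense (1.05 to 9.38), Hoxa 2.77 times (0.955 to 9.73) and Hoxc 2.71 times (0.950 to 9.47). Of these 6 pairs, 1 interval, for Hoxb against Hoxd, did not reach 1, and its lower bound was close to it. That range reached 1 when close intervals were merged: the ratio of Hoxb to Hoxd was 1.86 (0.652 to 6.51) with intervals less than 500 bp apart merged, and 1.51 (0.507 to 5.43) for those less than 1000 bp apart. No adjustment was made for the number of pairs.

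The order was steeper in bases than in intervals. Intervals covered 4900 bp of the Hoxb window (2.69%), 2150 bp of the Hoxc window (1.72%), 1850 bp of the Hoxa window (1.61%) and 450 bp of the Hoxd window (0.425%). Hoxa, Hoxb and Hoxc had nearly the same number of intervals per 100 kb, while the mean width was 204 bp in Hoxb against 123 bp in Hoxa and 134 bp in Hoxc. A single group of 6 intervals held 48.0% of the interval bases of Hoxb, so its place in bases and mean width depended on that group. The autosomes as a whole were covered to 0.688%, below Hoxa, Hoxb and Hoxc and above Hoxd.

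**Figure D1:**
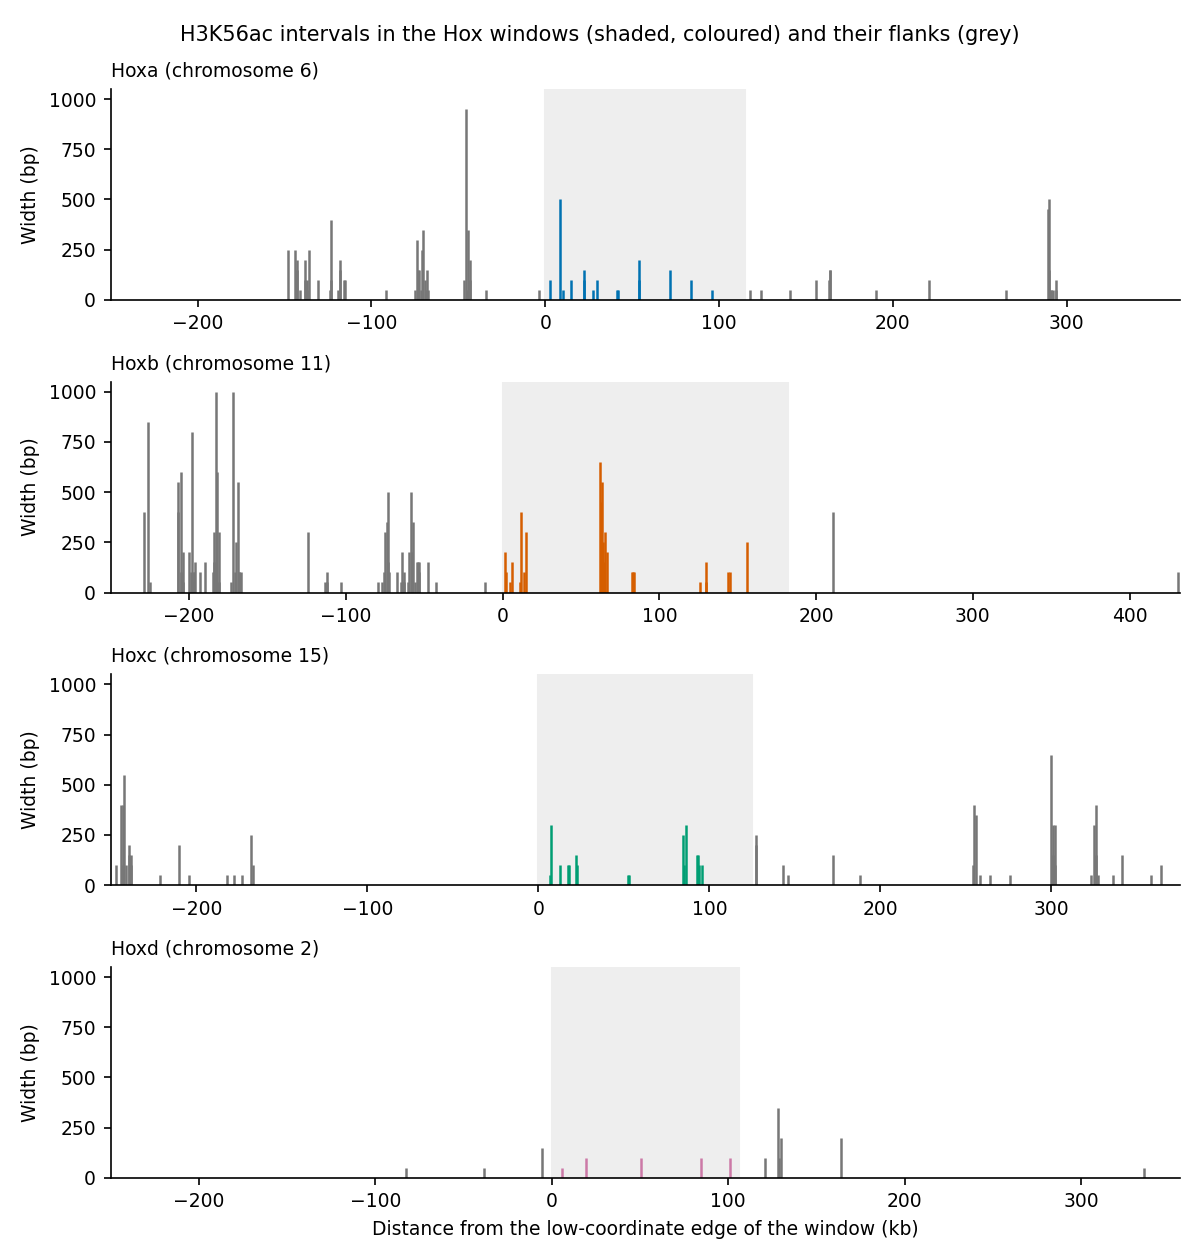
H3K56ac intervals along the 4 Hox windows (shaded, coloured lines) and 250 kb on each side (grey lines). The x axis is the distance in kb from the low-coordinate edge of the window, and the height of each line is the width of the interval in bp. Hoxb members reach 650 bp, the 5 Hoxd members stand apart at 50 or 100 bp, and the flanks of Hoxb are filled on the low-coordinate side only, apart from 2 intervals.

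The Hoxb cluster had the widest members. Its 3 widest intervals lay together, 650 bp from 96111701 to 96112350, 450 bp from 96112801 to 96113250 and 550 bp from 96113451 to 96114000. With the intervals at 96114151 to 96114400 (250 bp), 96114851 to 96115000 (150 bp) and 96115251 to 96115550 (300 bp) they formed a group with less than 1 kb between neighbours. This group of 6 spanned 3850 bp, from 61.7 to 65.5 kb inside the window, and held 2350 bp of interval sequence, or 48.0% of the interval bases of Hoxb. A further interval of 200 bp followed at 96116551 to 96116750. The group was singled out after its values were seen.

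In the whole list, intervals less than 1 kb apart formed 52860 groups. Of these, 1783 (3.37%) had at least 6 intervals, and 979 (1.85%) had at least 2350 bp of interval sequence. The Hoxb group was therefore large for the list, but of a size that many other places reached. Without it, Hoxb held 2550 bp of interval sequence, in a window of 182 kb against 125 kb for Hoxc and 115 kb for Hoxa.

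The rest of the Hoxb window alternated between short groups and empty stretches. The first member lay at 96051301 to 96051500 (200 bp), and 8 members stood in the first 15.2 kb, on the side of Hoxb13, with widths from 50 to 400 bp. The next 46.5 kb, from 96065201 to 96111700, held no interval and formed the longest empty stretch of the window. It ended at the group of 6. From there on, 3 intervals of 100 bp lay between 96132251 and 96133850, and 3 intervals of 50 to 150 bp between 96176301 and 96180500. Intervals of 100 bp at 96194151 and 96194651 and the last member, 250 bp from 96205651 to 96205900, completed the 24. No member lay in the last 10% of the window, on the side of Hoxb1, the earliest gene of the cluster.

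The Hoxa window held 15 intervals, mostly of 50 or 100 bp. Its widest member was 500 bp, from 52108251 to 52108750 and 8.25 kb from the low-coordinate edge. That interval alone made up 27.0% of the 1850 interval bases of Hoxa. The second widest was 200 bp (52154001 to 52154200), and the next, by position among those of 150 bp, lay at 52122101 to 52122250. The first member was at 52102751 to 52102850 (100 bp) and the last at 52196101 to 52196150 (50 bp). Beyond the last, 18.9 kb up to the high-coordinate edge held no interval, and this was the longest empty stretch of the window.

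Close neighbours were counted in each cluster. A second interval lay less than 1 kb away for 6 of the 15 (40.0%, 95% interval 16.3 to 67.7), against 17 of 24 in Hoxb (70.8%, 48.9 to 87.4) and 14 of 16 in Hoxc (87.5%, 61.7 to 98.4). In Hoxd this held for 0 of 5, which allows a share of up to 60.0% if 3 counts are taken as the limit and up to 52.2% by the exact binomial interval. Over the whole list the share was 61.6%, and over all 60 members 61.7%. The middle gap between neighbouring members was 5225 bp in Hoxa, 1000 bp in Hoxb, 700 bp in Hoxc and 23375 bp in Hoxd, where the median over the autosomes was 1500 bp.

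The Hoxc window held its 16 intervals in separate blocks. Joined across gaps of less than 12500 bp, a distance in common use for enhancer domains, they formed 3 clusters. The first had 7 intervals from 102751851 to 102767950, on the side of Hoxc13, and included a member of 300 bp (102752051 to 102752350). A pair of 50 bp intervals at 102797551 and 102797851 stood alone in the middle of the window. The last had 7 intervals from 102829601 to 102840700, among them the members of 250 bp (102829601 to 102829850) and of 300 bp (102830951 to 102831250). The last member lay at 102840601 to 102840700 (100 bp), and the 31.7 kb before the last block were empty. None of the 16 reached 500 bp.

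The Hoxd window was the sparsest, and each of its members stood by itself. The 5 intervals lay at 74505551 to 74505600, 74519651 to 74519750, 74550301 to 74550400, 74584701 to 74584800 and 74601001 to 74601100. The first, on the side of Hoxd13, was 50 bp wide, and the other 4 were 100 bp wide. Their distances from the low-coordinate edge were 5.58 kb, 19.7 kb, 50.4 kb, 84.8 kb and 101 kb, so that they were spread over the whole cluster. A total of 4 had no neighbour within 12500 bp; the first had an interval of 150 bp outside the window (74494151 to 74494300) within that distance. In Hoxa, Hoxb and Hoxc, 0 members were that isolated, while 10.4% of the whole list was. For Hoxa this rested on a narrow margin. Its members that start at 52171551, 52184001 and 52196101 had their nearest neighbours 12300, 12000 and 12000 bp away, just under the cut.

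In Hoxa and in Hoxb most members lay on the low-coordinate side. In Hoxa, 12 of 15 members (80.0%, 95% interval 51.9 to 95.7) lay below the midpoint of the window. In Hoxb, 18 of 24 (75.0%, 53.3 to 90.2) lay below the midpoint, which there is the side of Hoxb13; without the group of 6 it was 12 of 18 (66.7%, 41.0 to 86.7), a range that includes an even split. The values for Hoxc, 9 of 16 (56.2%, 29.9 to 80.2), and for Hoxd, 3 of 5 (60.0%, 14.7 to 94.7), could not be told from an even split. Since neighbouring intervals are not independent, these ranges are too narrow.

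**Figure D2:**
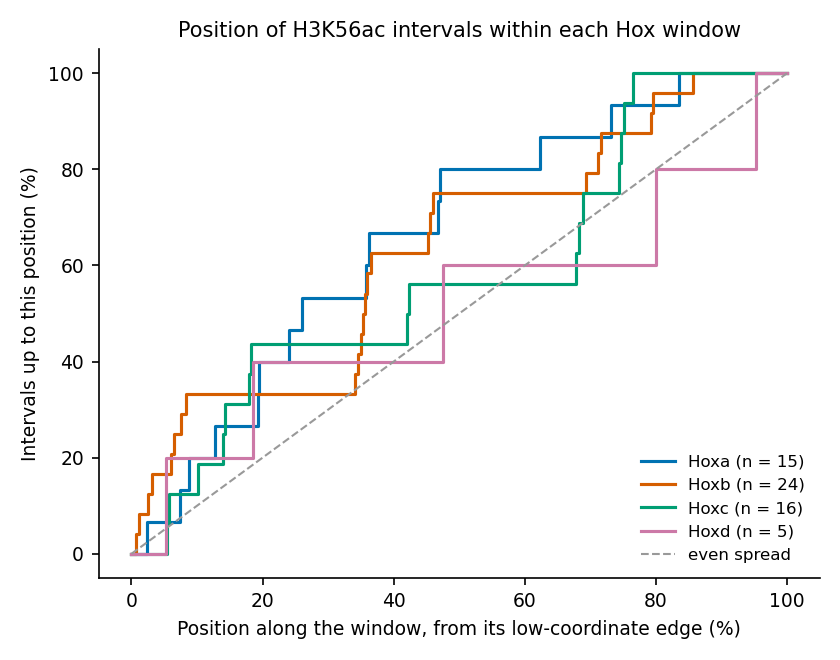
Cumulative share of the members of each Hox window (y axis, %) along the window from its low-coordinate edge (x axis, % of its length), with an even spread as the dashed line. The lines of Hoxa and Hoxb lie above the diagonal at the midpoint, at 80.0% and 75.0%, and level stretches mark parts of a window without intervals.

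Widths in the Hox windows were those of short intervals. The median was 100 bp in Hoxa, Hoxc and Hoxd and 150 bp in Hoxb, and it was 100 bp over all 60 members, over their flanks and over the whole list. Intervals of 50 bp, the smallest step of the list, were 13 of the 60 (21.7%, 95% interval 12.1 to 34.2), against 31.1% of the flank intervals and 30.7% of the list. Intervals of 100 bp were 24 of the 60 (40.0%, 27.6 to 53.5), against 23.2% in the flanks and 27.5% in the list. The range for 100 bp lay just above the share in the list, and that for 50 bp included it.

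Broad intervals were rare in the clusters. A width of 500 bp or more was found for 3 of the 60 members (5.00%, 1.04 to 13.9), 1 in Hoxa and 2 in Hoxb, against 6.98% of the list. A width of 1000 bp or more was found for 0 of the 60, which allows a share of up to 5.00% if 3 counts are taken as the limit and up to 5.96% by the exact binomial interval, and the share in the list was 1.55%. A lack of broad intervals in the Hox clusters relative to the list was therefore not detectable with 60 members. Their mean width was 156 bp, against 184 bp in the flanks and 182 bp in the list.

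**Figure D3:**
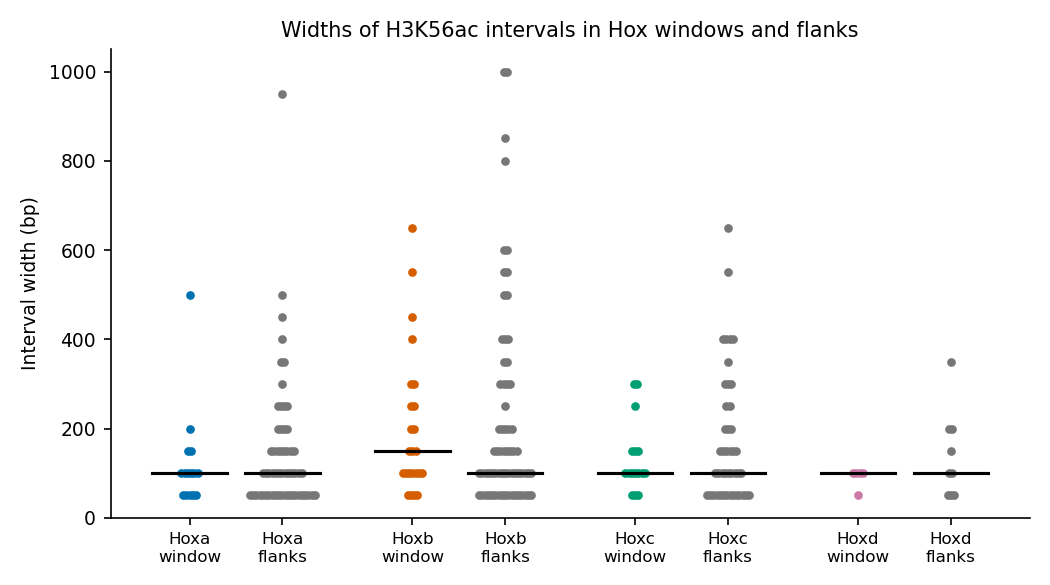
Width in bp (y axis) of each H3K56ac interval in the Hox windows (coloured points) and in their flanks of 250 kb on each side (grey points), with the median as a black line. Medians are 100 bp in 7 of the 8 columns and 150 bp in the Hoxb window, and the widest flank intervals, of 1000 bp, belong to Hoxb.

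The surroundings of the clusters, 250 kb on each side, held 177 intervals, or 8.85 per 100 kb. Pooled over the 4 clusters, the windows were 1.28 times as dense as their flanks (95% interval 0.942 to 1.73). Singly, the ratio was 1.14 for Hoxa (0.602 to 2.05), 0.984 for Hoxb (0.59 to 1.59), 1.45 for Hoxc (0.766 to 2.63) and 2.62 for Hoxd (0.69 to 8.71). Each range included 1, so that with flanks of 250 kb no cluster stood out from its surroundings in number of intervals beyond counting error. In bases, the ratios were 0.930, 0.894, 1.12 and 1.70 in the same order. For Hoxc and Hoxd the ratio in intervals depended on the flank length. It was 4.27 for Hoxc and 1.18 for Hoxd with flanks of 100 kb, and 1.13 and 4.72 with flanks of 500 kb. No 95% interval was computed at these lengths, so whether the higher values exceed counting error was not tested.

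Hoxd had the lowest density both inside its window and in its flanks. The order of the other clusters depended on split intervals: with intervals less than 500 bp apart merged, Hoxa came first with 10.4 per 100 kb, before Hoxb with 8.79 and Hoxc with 7.20. The flanks of Hoxb held 67 intervals, those of Hoxa 57, those of Hoxc 44 and those of Hoxd 9. The flanks of Hoxd had 1.8 intervals per 100 kb (0.823 to 3.42), against 11.4, 13.4 and 8.8 for Hoxa, Hoxb and Hoxc. An empty stretch of 667 kb, from 73750451 to 74417250, ended 82.8 kb before the Hoxd window and began outside its flank. Of 90222 gaps between neighbouring autosomal intervals, 596 (0.661%) were at least that long.

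The 2 sides of a cluster could differ far more than the cluster differed from their mean. At Hoxb the low-coordinate flank, beyond Hoxb13, held 65 intervals (26.0 per 100 kb, 20.1 to 33.1), and the high-coordinate flank, beyond Hoxb1, held 2 (0.8 per 100 kb, 0.0969 to 2.89). The low-coordinate flank was 32.5 times as dense as the other (8.64 to 274). Hoxb itself lay between them, at 0.507 times the density of the first (0.304 to 0.821) and 16.5 times that of the second (4.09 to 144). The ratio near 1 for Hoxb against both flanks together was therefore the mean of a dense and a nearly empty side.

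Outside the Hoxb window, the nearest interval on the low-coordinate side lay at 96039051 to 96039100 (50 bp), 10.9 kb away. On the other side it lay at 96260751 to 96261150 (400 bp), 28.8 kb away, and after it 219 kb without intervals followed, up to 96480600. The low-coordinate flank also had the widest intervals near any cluster, 2 of 1000 bp. In the RefSeq gene order, protein-coding genes on the side beyond Hoxb13 include Atp5g1, which encodes a subunit of the mitochondrial ATP synthase. Ube2z, which encodes a ubiquitin-conjugating enzyme, is also on that side. Both are examples and not the full list. The next protein-coding gene beyond Hoxb1 is Skap1, which encodes an adaptor protein of T cells. Which of these genes the flank intervals lay at was not analysed here.

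At Hoxa the low-coordinate flank held 39 intervals (15.6 per 100 kb, 11.1 to 21.3) and the other flank held 18 (7.2 per 100 kb, 4.27 to 11.4), a ratio of 2.17 (1.21 to 4.02). The denser flank was thus the low-coordinate one at both Hoxa and Hoxb. Intervals came close to the Hoxa window on both sides, at 52096501 to 52096550 and at 52218101 to 52218150, each 50 bp wide. All 39 intervals of the low-coordinate flank lay within 148 kb of the window. Beyond them, 168 kb were empty, from 51784351 to 51952200.

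At Hoxc the flanks held 18 intervals on the low-coordinate side and 26 on the other, a ratio of 0.692 (0.358 to 1.31). The 174 kb from 102577751 to 102751850 were empty and ended 6.85 kb inside the Hoxc window, at its first member. The nearest interval before the window, 102577651 to 102577750 (100 bp), was therefore 167 kb away, while the nearest after it, 102871551 to 102871750 (200 bp), was 1550 bp away. The choice of flank weighed on the value for Hoxc: with flanks of 100 kb, which lie within the empty stretch on the low-coordinate side, the window was 4.27 times as dense as its flanks. At Hoxd the flanks held 3 and 6 intervals, and the nearest on the high-coordinate side was 74621251 to 74621350 (100 bp), 15.2 kb from the edge.

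**Figure D4:**
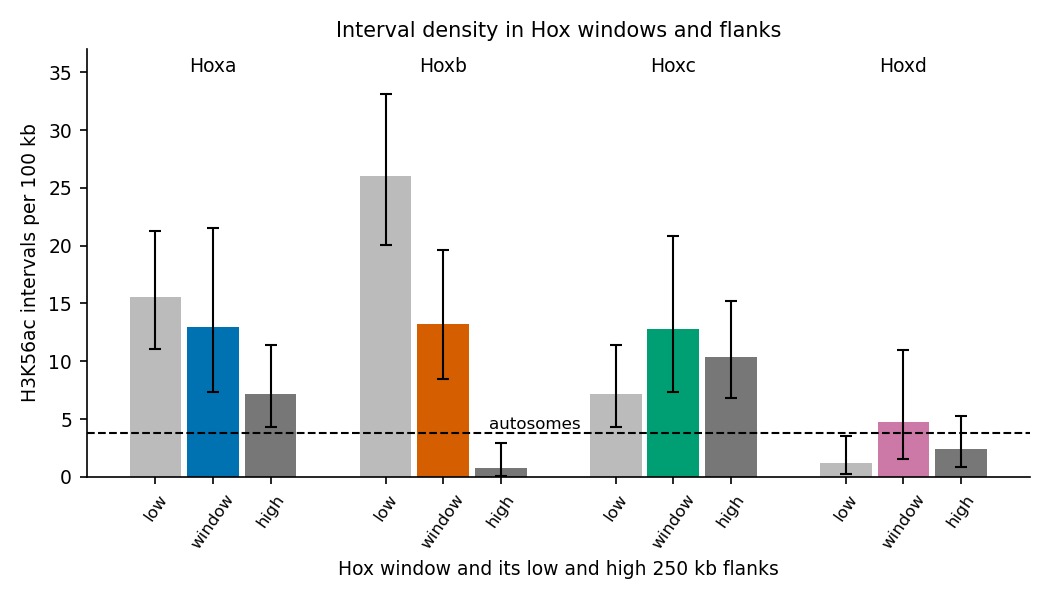
H3K56ac intervals per 100 kb (y axis) in each Hox window (coloured bars) and in the 250 kb on its low-coordinate and high-coordinate side (light and dark grey bars), with exact Poisson 95% intervals, and the mean of the autosomes as a dashed line (3.75). The flanks of Hoxb differ, at 26.0 and 0.8, and the flanks of Hoxd, at 1.2 and 2.4, lie below the dashed line.

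To place the clusters in the genome, every autosomal window of the same length was counted, at steps of 10 kb and without those that touched a Hox window. At least 15 intervals, the number in Hoxa, were found in 9.16% of 240478 windows. At least 24, as in Hoxb, were found in 8.70% of windows of its length, at least 16, as in Hoxc, in 9.34%, and at least 5, as in Hoxd, in 24.1%. The middle window of each length held 1 interval, and 39.8% to 49.3% of windows held none. Hoxa, Hoxb and Hoxc thus stood within the densest 10% of windows, but not at the top of the range, which reached 100 intervals for the length of Hoxa and 137 for that of Hoxb. Windows overlap and are not independent, so these shares describe the list and are not tests.

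The denominator moved these shares. Among windows with at least 1 interval, the shares were 17.6% for Hoxa, 14.4% for Hoxb, 17.4% for Hoxc and 47.6% for Hoxd. On chromosome 11 alone, whose mean of 6.14 intervals per 100 kb is above that of the autosomes, 16.0% of windows held at least as many intervals as Hoxb. In interval bases, at least as much was found in 12.1%, 7.35%, 11.4% and 27.7% of windows for Hoxa, Hoxb, Hoxc and Hoxd.

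**Figure D5:**
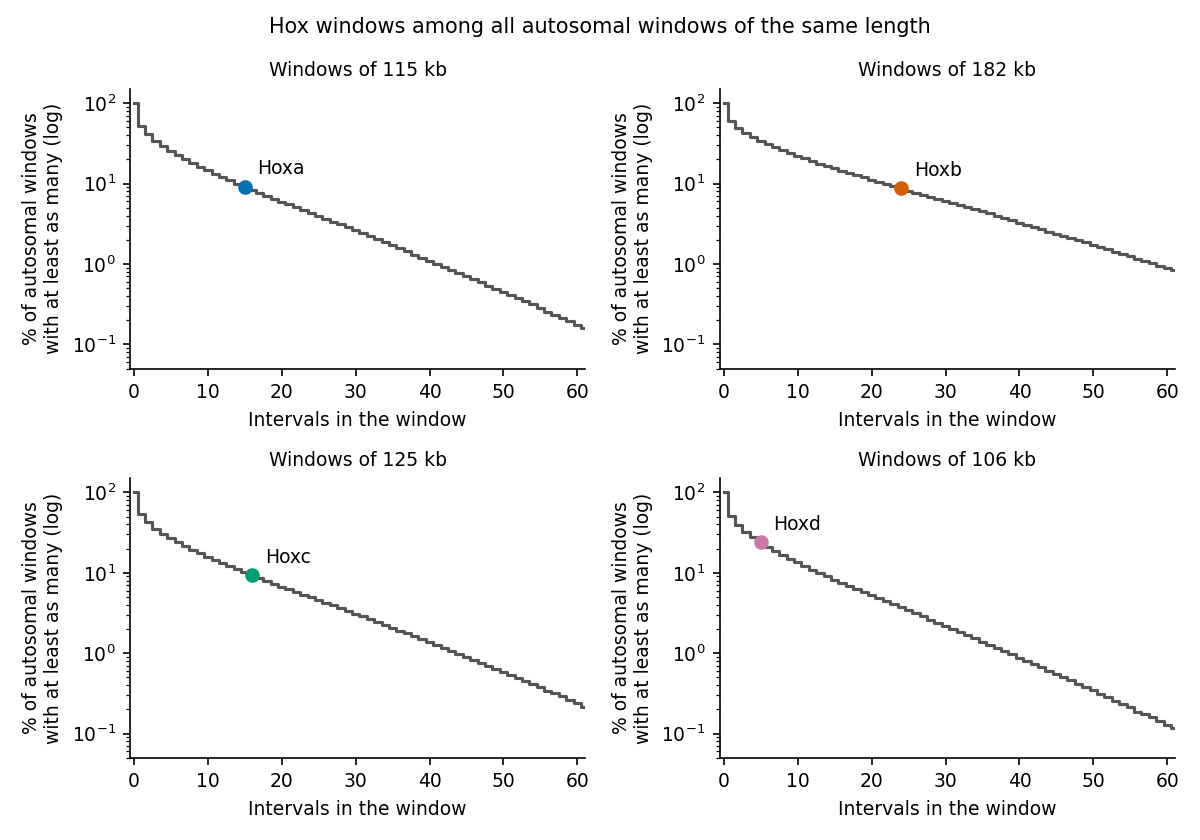
Share of all autosomal windows of the length of each Hox window (y axis, %, log scale) that hold at least the number of H3K56ac intervals on the x axis, with the Hox window as a coloured point. Hoxa, Hoxb and Hoxc lie between 8.70% and 9.34%, and Hoxd lies at 24.1%.

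The contrast of each cluster with its own surroundings was set beside that of all windows. Among windows whose flanks held 5 or more intervals, the ratio of window to flank density was at most that of Hoxa in 69.2%, at most that of Hoxb in 63.0%, at most that of Hoxc in 76.1% and at most that of Hoxd in 89.5%. The middle window had a ratio of 0.590 to 0.670, depending on the length, so that all 4 Hox windows were above the middle. The minimum applied to the flanks alone, so windows without intervals inside were kept and lowered this middle. Hoxb, with about the density of its flanks (0.984, 95% interval 0.59 to 1.59), was also above it, so a place above the middle does not set the clusters apart. The flank length moved these shares: with flanks of 100 kb the share for Hoxc was 97.4% and that for Hoxd 70.3%, and with flanks of 500 kb they were 70.5% and 96.2%. The ratio for Hoxd rests on 5 intervals inside and 9 outside. The flanks themselves were compared on another base, all windows, also those with fewer than 5 flank intervals. On that base the middle window had 7 flank intervals. The flanks of Hoxa, Hoxb and Hoxc were dense there, while those of Hoxd, with 9, stood near the middle. At least as many intervals as in the flanks of Hoxa were found around 9.74% of these windows. For the flanks of Hoxb the share was 6.98%, for those of Hoxc 14.4% and for those of Hoxd 46.6%.

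Flanks as unequal as those of Hoxb were found around a minority of windows. Its sparser flank held 2.99% of the intervals of both flanks, and in 19.7% of the windows compared the sparser flank held that share or less. The shares for the other clusters were 31.6% for Hoxa, 40.9% for Hoxc and 33.3% for Hoxd, and 64.4%, 82.8% and 69.0% of windows had flanks at least as unequal. This comparison was added after the flanks of Hoxb had been seen.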

How the data were processed

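The deposited list of the H3K56ac ChIP library gives a chromosome, a start and an end in bp for each interval. The submitters' processing notes name Bowtie and the mm9 build. The Bowtie version, how intervals were called and whether input reads entered the calls were not given in the sources used here. Per the file, the authors' list holds no counts, heights or scores. Starts and ends lay on a grid of 50 bp (0 off it), positions counted from 1 with the end included, and the smallest gap was 150 bp. Wide sites can be split by the calling, and weak sites missed.

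Intervals were counted in 4 mm9 windows, in 250 kb on each side, and in all autosomal windows of the same length at steps of 10 kb, in place of random ones. Flanks with under 5 intervals were left out of ratios across windows. The windows, comparisons and alternatives were chosen with earlier results of these data known. In windows with over 10 members, the 3 widest, the first, the last and the nearest outside each edge were to be named. No test between conditions was possible. Counting was tested on simulated data. Software was Python 3.11.15 with scipy 1.17.1, pandas 2.3.3, numpy 2.4.6 and, for plots, matplotlib 3.10.9.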

Additional observations from a re-analysis of the deposited data

How the results depend on the processing

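Of 137 alternative values, 113 stayed within 1.5 times of the value reported (for ratios to the flanks, within its 95% interval, which included 1 for each cluster, so that crossing 1 was not counted as a change of direction), and 22 moved. The other 2 are the density ratio of Hoxb to Hoxd, added after seeing the data, which was 2.80 as reported, 1.86 after merging under 500 bp and 1.51 after merging under 1000 bp, both with a range that reached 1. The limits for a move were wide for some values. All 16 alternatives for the share of windows with at most the Hox to flank ratio counted as unmoved. Among them, Hoxc went from 76.1% to 97.4% with flanks of 100 kb. For Hoxd, ratios to the flanks of 1.18 and 4.72 counted as unmoved against 2.62 as reported. Merging intervals less than 500 bp apart left 9 intervals in Hoxc, with a median width of 400 bp, and raised the bases to 7700 in Hoxb and 4100 in Hoxc. Merging under 1000 bp left 13 intervals in Hoxb and 8 in Hoxc, with 9750 and 4800 bp, and lowered the share of windows with at least the count of Hoxa to 4.80%. Merging fills gaps, so bases rise by construction. Windows narrowed by 10 kb on each side left 3 intervals in Hoxd. Flanks of 100 kb gave a ratio of 4.27 for Hoxc. The share of windows with at least the Hox count was 17.6%, 14.4%, 17.4% and 47.6% for Hoxa, Hoxb, Hoxc and Hoxd among windows with intervals, and 16.0% for Hoxb on its own chromosome. Joined clusters touching a window were 2, 5, 3 and 5; joining under 5 kb gave 9 in Hoxa and 5 in Hoxc, and under 25 kb gave 1 in Hoxa, 3 in Hoxb and 3 in Hoxd. Without its group of 6, an alternative chosen after seeing the data, Hoxb held 2550 bp. The ratio to the flanks stayed above 1 in all 8 alternatives for Hoxc and for Hoxd, but not for Hoxa, at 1.14 as reported and below 1 in 2 of 8 (0.932 with flanks of 100 kb, 0.930 in bases), nor for Hoxb, at 0.984 as reported and above 1 in 4 of 9, up to 1.43 after merging under 1000 bp. No paired analysis was possible because there is 1 library and no test. Intervals at Hox start sites were not run, since no mm9 annotation was used here. Without reads, a Hox site below the calling threshold cannot be told from one without H3K56ac.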
